A study of Mus musculus with 72 samples.

Results

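The liver of germ-free mice without hepatic Bmal1 was compared between the early night and the early day. The comparison rests on 6 of the 72 libraries of the series, the 3 of GF LKO mice at ZT14 and the 3 of GF LKO mice at ZT2, chosen by the genotype, microbial status and time that their labels give. ZT is zeitgeber time, counted in hours from lights on, so ZT2 falls shortly after the lights came on and ZT14 shortly after they went off. LKO mice had the genotype Bmal1 fl/fl Albumin-Cre, in which Cre recombinase, driven by the albumin promoter, removes loxP-flanked Bmal1 in hepatocytes. Which other cells of the liver kept Bmal1 was not tested. GF mice were raised without microbes in isolators. GF WT mice (Bmal1 fl/fl without Cre, germ free) and SPF LKO mice (Bmal1 fl/fl Albumin-Cre, specific pathogen free, with a microbiota) at the same ZT were set beside them, with 3 libraries per group and ZT. All mice were males, of the strain C57BL/6 in the labels and of a C57BL/6J background in the study's methods. The labels give no age, and the study's methods describe adult mice that were housed singly under equal spans of light and dark, with autoclaved chow always available. Bulk liver RNA was sequenced, so fewer cells of a type and less RNA per cell cannot be told apart.

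BMAL1 pairs with CLOCK or NPAS2 and activates genes with an E-box, among them the Period and Cryptochrome genes, whose products inhibit it, and Nr1d1, whose product represses Bmal1 in turn. A liver whose hepatocytes lack BMAL1 still lives in an animal with clocks in the brain and other organs, with daily cycles of feeding, activity, body temperature and hormones. Genes of bile acid, glucose and lipid metabolism, of heat shock and of protein folding are known to follow such cues in the liver.

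The 6 libraries held 18707427 to 19923220 counts, and the most abundant gene, Alb, took at most 4.22% of a library. Mitochondrial transcripts took 5.39% to 5.73% of the counts at ZT14 and 5.43% to 6.08% at ZT2. No pair of libraries held identical counts, and Spearman's rho across genes was 0.9888 to 0.9926 within a ZT and 0.9792 to 0.983 between ZT14 and ZT2. Levels are given as CPM, counts scaled to a common library size with the TMM factors of the 18 GF LKO libraries, for replicates 1, 2 and 3 in that order. The labels name no batch. Nothing in the labels says that the replicates of a group came from separate animals, and p-values measure the spread between these samples.

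Among the libraries of the comparison groups, 3 went against their labels. In the SPF LKO library labelled ZT14 replicate 2, Npas2, which is high in LKO livers, was almost absent (25.03, 0.2192 and 24.02 CPM in replicates 1, 2 and 3). The SPF LKO library labelled ZT18 replicate 1 stood apart likewise (1.823, 36.68 and 27.51 CPM). In the GF WT library labelled ZT6 replicate 3, Nr1d1 was far under the other replicates (50.52, 49.23 and 9.36 CPM). None of the 6 GF LKO libraries is among these.

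Arntl, the gene symbol of Bmal1 (chromosome 7, 113207465 to 113314126, GRCm38), was read at low levels in every GF LKO library. It stood at 7.135, 10.11 and 9.1 CPM at ZT14 and 10.9, 9.769 and 12.8 CPM at ZT2, and these ranges overlapped (log2 fold change -0.35, SE 0.16, adjusted p 0.178 by edgeR). In GF WT mice, on a scale shared by all 72 libraries, it read 9.651, 10.9 and 10.7 CPM at ZT14 and 29.78, 26.4 and 33.19 CPM at ZT2. Reads were summed over the whole gene, the deleted part included, so the remaining level is no direct check of the deletion.

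Of 13494 genes tested in a fit of the 18 GF LKO libraries of all 6 ZT, 1780 differed between ZT14 and ZT2 at an adjusted p under 0.05 (13.2%). The quasi-likelihood test of edgeR was used, adjusted over all genes tested by the method of Benjamini and Hochberg. Of these, 879 were higher at ZT14 (6.51% of the genes tested) and 901 were lower (6.68%). The counts of called genes in the gene lists below are to be read beside these shares. Among the called genes 353 differed at least as much as a log2 fold change of 1 (2.62%), 128 of them higher and 225 lower at ZT14. The median log2 fold change over all genes tested was -0.0005, and the median size over the called genes was 0.62 with a median SE of 0.14. The count depended on single libraries, being 1069 without ZT14 replicate 1, 1134 without ZT14 replicate 3 and 976 without ZT2 replicate 3, and 720 genes were called with all libraries and also without each in turn. The 879 higher genes became 539, 413, 486 and 527 without ZT2 replicate 2, ZT2 replicate 3, ZT14 replicate 1 and ZT14 replicate 3, and the 901 lower ones 563 and 583 without ZT2 replicate 3 and ZT14 replicate 1.

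**Figure D1:**
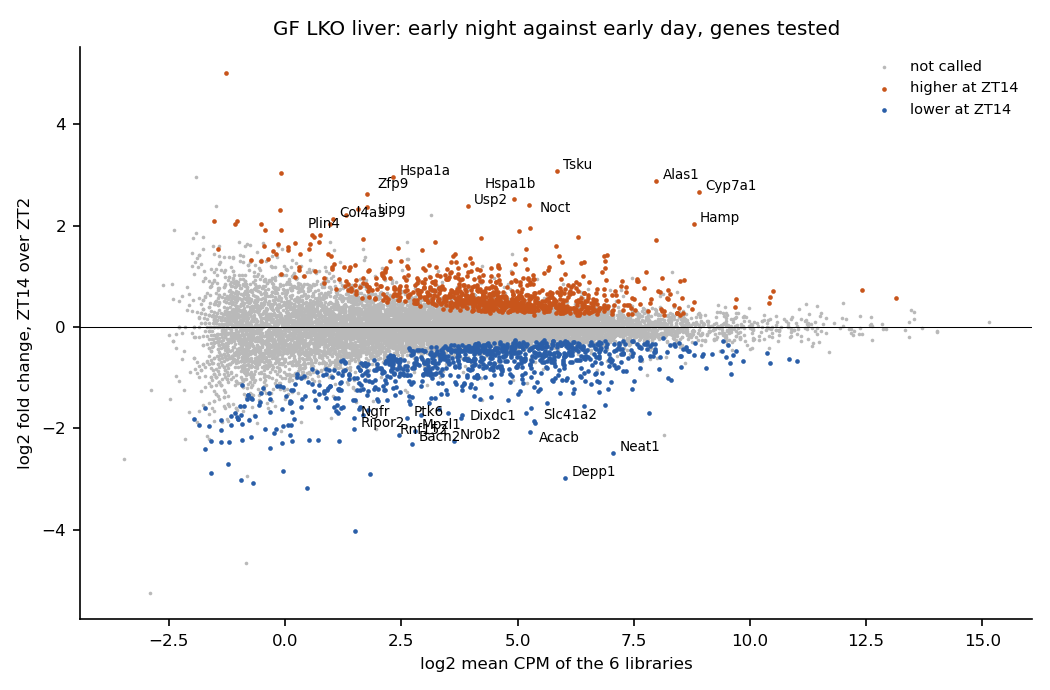
Log2 fold change of ZT14 over ZT2 (vertical axis) against log2 mean CPM of the 6 libraries (horizontal axis) for the 13494 genes tested in GF LKO livers. Colored points are the 879 genes called higher and the 901 called lower at ZT14, and the names mark the 12 largest increases and the 12 largest decreases of those whose log2 CPM averaged 1 or more without overlap, leaving aside predicted genes, from Tsku at 3.08 to Depp1 at -2.99.

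The 12 largest increases at ZT14 were taken from the called genes whose log2 CPM averaged 1 or more and whose libraries did not overlap between the ZT, leaving aside predicted genes, and belonged to varied functions. Genes of lower levels are outside this choice, and some had larger fold changes. Tsku, which encodes the secreted protein tsukushi (chromosome 7, 98350668 to 98361328), read 140.2, 76.9 and 90.28 CPM at ZT14 and 14.62, 8.695 and 13.12 CPM at ZT2, a log2 fold change of 3.08 (SE 0.33, adjusted p 2.86e-05). Alas1, the rate-limiting enzyme of heme synthesis, read 536.8, 474.1 and 327.3 CPM at ZT14 against 68.77, 72.57 and 40.58 CPM at ZT2 (2.88, SE 0.63, adjusted p 0.00569). For both genes every ZT14 library was above every ZT2 library. Noct, which encodes the phosphatase nocturnin, read 62.95, 42.18 and 86.48 CPM at ZT14 against 22.75, 5.475 and 8.02 CPM at ZT2 (2.40, SE 0.45). Hamp, which encodes the iron-regulating hormone hepcidin, read 662.9, 637.2 and 828.8 CPM at ZT14 against 140.8, 191.8 and 189.5 CPM at ZT2 (2.03, SE 0.26). Neither gene overlapped between the ZT, and ZT2 replicate 1 was the highest of its group for Noct. The deubiquitinase gene Usp2 rose by 2.39, Lipg, endothelial lipase, by 2.36, Plin4, a coat protein of lipid droplets, by 2.32, the zinc finger gene Zfp9 by 2.62 and Col4a3, a chain of type IV collagen, by 2.14. Cyp7a1, Hspa1a and Hspa1b complete these 12 and are described with their pathways.

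Among the 12 largest decreases, taken by the same rule, the first was that of Depp1, a gene induced by FOXO factors (chromosome 6, 116650609 to 116652794), with 16.68, 19.97 and 7.115 CPM at ZT14 against 89.23, 121.4 and 137.1 CPM at ZT2 (-2.99, SE 0.43, adjusted p 0.000237). Neat1, the noncoding RNA that scaffolds paraspeckles, read 23.19, 40.35 and 56.92 CPM at ZT14 against 169.8, 214.2 and 292.4 CPM at ZT2 (-2.49, SE 0.38). Both genes had every ZT14 library under every ZT2 library. The transcriptional repressor gene Bach2 differed by -2.30, Mpzl1 by -2.05, Ripor2 by -2.02, the magnesium transporter gene Slc41a2 by -1.90, Dixdc1, of the Wnt pathway, by -1.80, the neurotrophin receptor gene Ngfr by -1.79, the kinase gene Ptk6 by -1.79 and the ubiquitin ligase gene Rnf152 by -1.74. Nr0b2 and Acacb, the others of these 12, are described with bile acids and lipids. All 24 genes were called whichever of the 6 libraries was left out.

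In bile acid metabolism the first enzyme of synthesis and a repressor of its gene moved in opposite directions. Cyp7a1, the rate-limiting enzyme of bile acid synthesis (chromosome 4, 6265612 to 6275633), read 784.3, 795.8 and 895.2 CPM at ZT14 and 81.1, 156.5 and 154.5 CPM at ZT2 (log2 fold change 2.66, SE 0.35, adjusted p 0.000121). Nr0b2, which encodes the repressor SHP, read 6.61, 3.858 and 2.372 CPM at ZT14 and 20.51, 20.29 and 20.29 CPM at ZT2 (-2.24, SE 0.28, adjusted p 7.76e-05). The libraries of the ZT did not overlap for either gene, which the rule for the largest changes required. Among transporters, Abcb11, the bile salt export pump, read 690.5, 719.1 and 729.5 against 1330, 1044 and 1021 CPM (-0.67), and the sterol transporter gene Abcg8 differed by -0.76. Slc10a1, which takes bile acids up from the blood, was higher by 0.39, and Amacr, of the shortening of the bile acid side chain, differed by -0.43. In the whole list, 2 of 25 tested genes were called higher and 6 lower, with a median log2 fold change of 0.07. Cyp8b1, of cholic acid synthesis, read 320.4, 240 and 263 against 157.8, 305.7 and 273 CPM and was not called. The call of Slc10a1 was lost without ZT2 replicate 3 (adjusted p 0.0528) or ZT14 replicate 1 (0.0506), and that of Abcg8 without ZT14 replicate 3 (0.0503) and in a fit of all 72 libraries (0.0524).

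**Figure D2:**
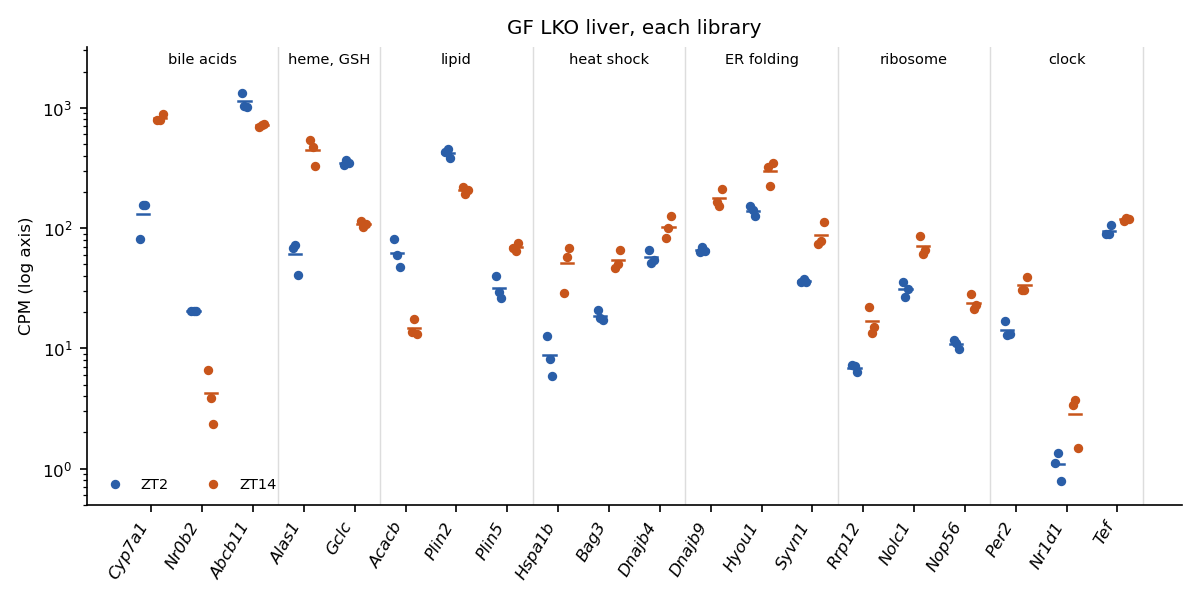
CPM (vertical log axis) of 20 genes (horizontal axis, grouped by function) in each GF LKO library, with ZT2 in blue, ZT14 in orange and bars at the means of 3 libraries. Cyp7a1 lies between 81.1 and 156.5 CPM at ZT2 and between 784.3 and 895.2 CPM at ZT14, while Nr0b2 lies higher at ZT2.

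Most genes of glucose handling gave no call, as did most of all genes tested, of which 13.2% were called. The called share was 8.3% for glucose uptake, glycolysis and glycogen and 12.5% for gluconeogenesis and fasting. Of 24 tested genes of glucose uptake, glycolysis and glycogen, 2 were called higher, and 0 were lower by edgeR (1 at an unadjusted p under 0.05, 0 by DESeq2), with a median of 0.02. Among the called genes was Ppp1r3b, a glycogen-targeting subunit of a protein phosphatase, with 0.50, whose call was lost without ZT2 replicate 2 or 3 or ZT14 replicate 1 or 3 (adjusted p 0.0929 to 0.141) and in the fit of all 72 libraries (0.345). Gys2, the liver glycogen synthase, read 114.4, 86.07 and 113.4 against 95.61, 97.9 and 88.27 CPM, and these overlapped.

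Of 24 genes of gluconeogenesis and fasting, 3 were called higher, and 0 were lower by edgeR (0 at an unadjusted p under 0.05, 0 by DESeq2), with a median of 0.08. The 3 were Gpt2, a transaminase that turns alanine into pyruvate (0.93, SE 0.13), Slc37a4, the glucose-6-phosphate transporter (0.91, SE 0.20), and Sds, serine dehydratase (1.003, SE 0.29). The call of Sds was lost without any one library except ZT2 replicate 1 (adjusted p 0.0535 to 0.134). Pck1 and G6pc, which encode the enzymes best known for control of the pathway, were not called. Pck1 read 3362, 2637 and 3485 against 3056, 1742 and 2341 CPM and G6pc 1344, 1048 and 710.3 against 995.3, 1178 and 1018 CPM, and both overlapped between the ZT. Among hormones secreted by the liver, 2 of 20 genes were higher, Hamp and the activin subunit gene Inhbe (1.16), and 0 were lower by edgeR (0 at an unadjusted p under 0.05, 0 by DESeq2), with a median of 0.07. Inhbe was not called without ZT2 replicate 1 (adjusted p 0.0512) or ZT14 replicate 1 (0.0555), or in the fit of all 72 libraries (0.0832).

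Of 18 genes of fatty acid synthesis and desaturation, 5 were called lower and 1 higher at ZT14, with a median of -0.34. Acacb, the mitochondrial acetyl-CoA carboxylase whose product restrains fatty acid oxidation (chromosome 5, 114146535 to 114250761), read 13.74, 17.67 and 13.24 CPM at ZT14 against 81, 59.42 and 47.48 CPM at ZT2 (log2 fold change -2.07, SE 0.29, adjusted p 0.000197). Its highest ZT14 library stayed under its lowest ZT2 library, which the rule for the largest changes required. Acss2, which makes acetyl-CoA from acetate, differed by -1.002, SE 0.23, Mlxipl, which encodes the carbohydrate-responsive factor ChREBP, by -0.96, SE 0.23, the elongase gene Elovl6 by -0.65, SE 0.18, and Pgd, of the pentose phosphate pathway, by -0.61, SE 0.14. Thrsp, linked to lipogenesis, went the other way, with 469, 470.2 and 467.7 against 264.4, 250.1 and 232.8 CPM (0.91, SE 0.17). Fasn, fatty acid synthase, read 174, 151.7 and 167.8 against 173.3, 152.3 and 145.2 CPM, overlapped and was not called. The count of 5 lower genes was 3 without ZT14 replicate 1 and 9 with no filter on low counts. Elovl6 was not called without ZT2 replicate 1 or any one ZT14 library (adjusted p 0.0503 to 0.103), Mlxipl not without ZT14 replicate 1 (0.0557), and Elovl6 and Thrsp not in the fit of all 72 libraries (0.146 and 0.138).

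The coat proteins of lipid droplets divided. Plin2, the main droplet coat protein of hepatocytes, read 218.7, 192 and 209 CPM at ZT14 against 431.9, 457.2 and 383.5 CPM at ZT2 (-1.04, SE 0.12, adjusted p 5.91e-05). Plin5, which ties droplets to mitochondria, read 68.36, 64.75 and 75.39 against 39.7, 29.47 and 26.4 CPM (1.13, SE 0.21), and Plin4 4.512, 5.161 and 5.074 against 1.807, 0.5904 and 0.5311 CPM. Plin2 was thus lower and Plin4 and Plin5 higher at ZT14 in all libraries. G0s2, an inhibitor of triglyceride lipase, was higher by 1.77 (SE 0.41), Gpam, of the first step of triglyceride synthesis, differed by -0.57 and the phosphatase gene Lpin3 by -0.84. Of 21 genes of triglyceride synthesis, storage and lipolysis, 4 were called higher and 4 lower, with a median of 0.17, and the lower ones were 2 without ZT2 replicate 2 and 2 without ZT14 replicate 3. Gpam was not called without ZT14 replicate 2 (adjusted p 0.0555), Lpin3 not without ZT2 replicate 2 (0.0523) or ZT14 replicate 3 (0.0504), and G0s2 not in the fit of all 72 libraries (0.179).

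Fatty acid oxidation and ketogenesis had 2 of 33 tested genes higher, and 0 were lower by edgeR (2 at an unadjusted p under 0.05, 1 by DESeq2), with a median of 0.002. Cpt1a, which admits fatty acids to mitochondria, read 407.6, 337.5 and 322.2 against 245.7, 221.3 and 245.7 CPM (0.58), and Acaa1a, a peroxisomal thiolase, differed by 0.29. Acaa1a lost its call without any one library except ZT14 replicate 3 (adjusted p 0.057 to 0.126), with no filter on low counts (0.169) and in the fit of all 72 libraries (0.379), and Cpt1a in the last of these (0.0508). In cholesterol synthesis and uptake, 2 of 26 genes were higher, among them Hsd17b7 (0.63), and 1 was lower, the desaturase gene Sc5d (-0.48), with a median of -0.01. Neither Hsd17b7 nor Sc5d was called in the fit of all 72 libraries (adjusted p 0.114 and 0.0888). Hsd17b7 was not called without ZT2 replicate 2 or 3 or ZT14 replicate 2 (adjusted p 0.0599 to 0.0832) and Sc5d not without ZT2 replicate 1 or 3 or ZT14 replicate 1 or 3 (0.0736 to 0.116).

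In xenobiotic metabolism 2 of 31 genes were called higher and 3 lower, with a median of -0.11. Alas1 and Cyp2e1, which oxidizes ethanol, were the higher ones, Cyp2e1 with 11500, 10890 and 9872 against 6450, 7951 and 7297 CPM (0.57). Cyp2c55 (-0.90), the carboxylesterase gene Ces1d (-0.81) and the glutathione transferase gene Gstm3 (-0.63) were lower. Cyp2e1 was not called without ZT2 replicate 1 or 3 or ZT14 replicate 1 (adjusted p 0.0536 to 0.0679), Cyp2c55 not without ZT14 replicate 3 (0.0598), Ces1d not without ZT14 replicate 2 or 3 (0.0588 to 0.0673) and Gstm3 not without any one library except ZT2 replicate 2 (0.0634 to 0.118). None of Cyp2c55, Ces1d and Gstm3 was called in the fit of all 72 libraries (adjusted p 0.262, 0.252 and 0.401). In the supply of NAD, coenzyme A and heme, 3 of 23 genes were higher, Alas1, Nampt (0.51) and the pantothenate kinase gene Pank3 (0.54), and 4 lower, with a median of 0.04. Of the lower ones Aox1 differed by -0.63, Qprt, of NAD synthesis from tryptophan, by -0.40 and Pank1 by -0.34. In the fit of all 72 libraries Nampt was not called (adjusted p 0.232).

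In the handling of metals, iron and oxidants, 2 of 22 genes were higher, Hamp and the zinc and iron transporter gene Slc39a14 (0.94, SE 0.13), and 2 lower, with a median of -0.09. Gclc, the rate-limiting enzyme of glutathione synthesis, read 113.4, 101.6 and 107.2 CPM at ZT14 against 335.8, 366.1 and 346.9 CPM at ZT2 (-1.70, SE 0.19, adjusted p 3.74e-05). Its ZT14 libraries lay far under all ZT2 libraries and close together. Srxn1, which repairs peroxiredoxins, differed by -0.51 and was not called without ZT14 replicate 3 (adjusted p 0.0549). The metallothionein gene Mt1 read 42.02, 57.45 and 44.01 against 53.63, 95.44 and 41.85 CPM, overlapped and was not called (-0.41).

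In the list of heat shock chaperones 8 of 23 tested genes were called higher, and 0 were lower by edgeR (1 at an unadjusted p under 0.05, 0 by DESeq2), with a median of 0.16. Hspa1a and Hspa1b encode the near-identical inducible HSP70 proteins and lie close together on chromosome 17 (34969190 to 34972156 and 34956436 to 34959238). Hspa1b read 29.01, 57.24 and 67.95 CPM at ZT14 against 12.6, 8.159 and 5.895 CPM at ZT2 (2.53, SE 0.34, adjusted p 0.000133), and Hspa1a 4.669, 10.22 and 11.69 against 1.701, 1.127 and 0.5842 CPM (2.95, SE 0.42). ZT14 replicate 1 was the lowest of its group for both. Reads with more than 1 best place in the genome were not counted, so the levels of this pair are uncertain. Bag3, a co-chaperone of HSP70, read 46.22, 49.79 and 65.85 against 20.73, 17.77 and 17.37 CPM (1.53, SE 0.17), and Dnajb4, Dnaja1 and the constitutive Hspa8 were higher by 0.85, 0.75 and 0.70. Hsp90aa1, the inducible HSP90, read 45.9, 55.73 and 72.41 against 72.49, 44.6 and 38.98 CPM and was not called. The count of higher genes was 5 in the fit of all 72 libraries, where Hspa8 was not called (adjusted p 0.0751).

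The 250 bases before the starts of Hspa1a and Hspa1b are shown because the heat shock factor HSF1 binds inverted repeats of GAA, and both genes moved together. The sequences are from RefSeq (GRCm38.p6), read 5′ to 3′ on the minus strand, at chr17:34972157-34972406 and chr17:34959239-34959488, with the pair GAANNTTC in capitals. This motif reads the same on both strands.
Hspa1a: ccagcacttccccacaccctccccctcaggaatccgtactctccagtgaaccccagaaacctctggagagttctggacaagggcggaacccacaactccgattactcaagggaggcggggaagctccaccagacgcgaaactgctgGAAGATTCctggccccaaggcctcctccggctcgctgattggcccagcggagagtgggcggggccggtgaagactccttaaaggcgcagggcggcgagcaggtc
Hspa1b: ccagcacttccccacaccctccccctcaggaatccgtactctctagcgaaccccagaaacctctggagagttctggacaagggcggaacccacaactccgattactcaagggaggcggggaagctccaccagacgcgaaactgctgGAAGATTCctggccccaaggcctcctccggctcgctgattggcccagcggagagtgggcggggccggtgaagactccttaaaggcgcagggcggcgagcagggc
The sequences were identical at 247 of 250 positions (98.8%), and each held 1 pair, which began 104 bases before the start. Among the 32851 promoter windows of 300 bases in the RefSeq table, 2582 held the pair (7.86%). Of the 18 heat shock genes with a window 10 held it, 5 of them among the 7 called genes with a window. A gene can have more than 1 window, as Hsph1 and Dnajb1 did, so this count by gene is not on the scale of the share by window. A match describes letters in a window and says nothing of binding.

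Genes of the endoplasmic reticulum, where secreted proteins fold, were also mostly higher where they were called. Of 26 tested, 10 were called higher at ZT14 and 1 lower, with a median of 0.25. Dnajb9, a co-chaperone induced by misfolded proteins, read 165.8, 153.7 and 210.1 against 63.78, 69.67 and 64 CPM (1.42, SE 0.25, adjusted p 0.00135). Syvn1, a ubiquitin ligase that helps to clear misfolded proteins, read 73.65, 77.99 and 112 against 35.45, 37.41 and 35.48 CPM (1.28, SE 0.22), and the chaperone gene Hyou1 323.8, 221.9 and 348.2 against 151.7, 140.8 and 127.1 CPM (1.09, SE 0.25). In all 3 genes ZT14 replicate 3 was the highest library. The stress sensor gene Atf6 was higher by 0.62 (SE 0.10), Creld2 by 1.60 (SE 0.37) and Ddit3, which encodes the stress factor CHOP, by 1.31 (SE 0.25). The gene called lower was the disulfide isomerase gene Pdia6, with -0.44, named after its value was seen. Hspa5, the main chaperone of this compartment, read 1774, 1547 and 2106 against 1256, 1068 and 981.8 CPM (0.72, adjusted p 0.0195), a call that was lost without ZT2 replicate 2 or 3 or ZT14 replicate 1 or 3 (adjusted p 0.0517 to 0.098) and in the fit of all 72 libraries (0.053). The 10 higher genes became 6 without ZT2 replicate 3 and 6 without ZT14 replicate 3.

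In the amino acid response driven by ATF4, 3 of 18 genes were called higher, and 0 were lower by edgeR (2 at an unadjusted p under 0.05, 1 by DESeq2), with a median of 0.11. The 3 were Atf4 (0.49), the related factor gene Atf5 (0.36) and Stbd1 (0.64). None of them was called in the fit of all 72 libraries (adjusted p 0.0843 to 0.327), and the count was 1 without ZT2 replicate 3, 1 without ZT14 replicate 1 and 1 without ZT14 replicate 3. Without ZT2 replicate 2 it was 2.

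Of the genes of ribosome biogenesis, those called were higher at ZT14. Of 35 tested genes 20 were called higher, and 0 were lower by edgeR (0 at an unadjusted p under 0.05, 0 by DESeq2), with a median log2 fold change of 0.58. Rrp12, which acts in the export of ribosomal subunits, read 21.98, 13.35 and 15 against 7.334, 7.085 and 6.373 CPM (1.28, SE 0.22, adjusted p 0.00113). Nolc1, a nucleolar phosphoprotein, read 85.25, 60.84 and 65.74 against 35.5, 26.78 and 31.07 CPM (1.18, SE 0.22), and Nop56, a core protein of box C/D particles, 28.12, 21.32 and 22.72 against 11.75, 11 and 9.825 CPM (1.15, SE 0.24). ZT14 replicate 1 was the highest library for each of these 3. Polr1a, the largest subunit of RNA polymerase I, was higher by 0.82, Rrs1 by 0.79 and nucleolin, Ncl, by 0.44. Summed over the list, levels were 1303 to 1573 CPM at ZT14 and 969.5 to 1030 CPM at ZT2. The 20 calls became 12, 6 and 7 without ZT2 replicates 1, 2 and 3 and 8 and 12 without ZT14 replicates 1 and 3. Rrs1 was not called without ZT2 replicate 3 (adjusted p 0.0526).

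**Figure D3:**
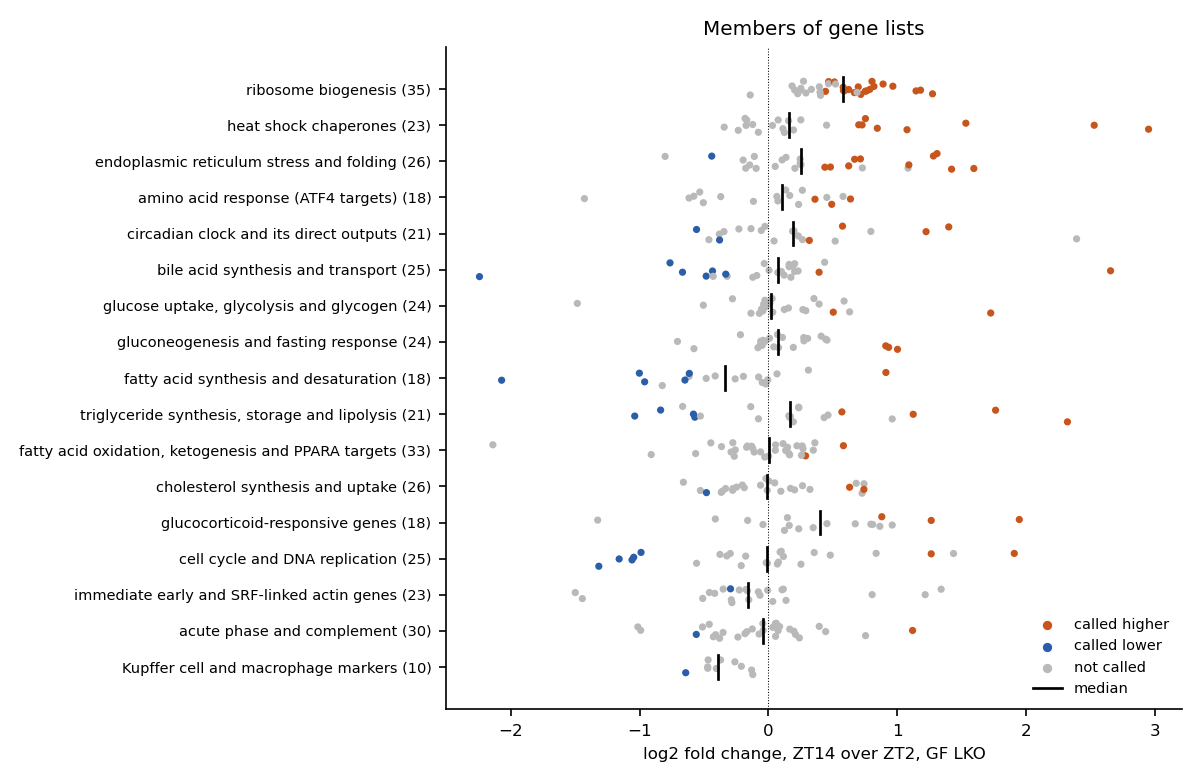
Log2 fold change of ZT14 over ZT2 in GF LKO livers (horizontal axis) for every tested member of 17 gene lists (rows, with the number tested), colored by call, with a black bar at each median. Of these 17 medians ribosome biogenesis has the highest, 0.58, and the macrophage markers the lowest, -0.39.

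Of 21 tested genes of the circadian clock and its direct outputs, 4 were called higher at ZT14 and 2 lower, with a median of 0.19. Per2, a repressor of the clock, read 30.85, 30.34 and 39.38 CPM at ZT14 against 16.79, 12.99 and 13.22 CPM at ZT2 (1.23, SE 0.18, adjusted p 0.000277). Nr1d1, which encodes the repressor REV-ERBα, was low at both ZT, with 3.357, 3.754 and 1.489 against 1.116, 1.342 and 0.7966 CPM (1.40, SE 0.33). Neither gene overlapped between the ZT. The output factor genes Hlf and Tef were higher by 0.58 (SE 0.13) and 0.32 (SE 0.09). Per1 read 27.38, 29.51 and 42.85 against 28.11, 11.38 and 17.9 CPM, Per3 3.41, 3.336 and 3.419 against 2.764, 3.06 and 4.036 CPM, Dbp 3.253, 3.701 and 2.372 against 1.807, 3.274 and 1.434 CPM and Cry1 64, 71 and 77.93 against 80.04, 73 and 80.73 CPM. In each of these 4 the ranges overlapped and the gene was not called. Nr1d1 was not called without ZT2 replicate 3 (adjusted p 0.0579) or ZT14 replicate 2 (0.0504), and Tef not without any one library except ZT2 replicate 3 (0.0598 to 0.119) or with no filter on low counts (0.0922). In the fit of all 72 libraries Nr1d1 and Tef were not called (adjusted p 0.267 and 0.225), and the count of higher genes was 2 without ZT14 replicate 2.

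Of 18 genes that respond to glucocorticoids, 3 were higher, and 0 were lower by edgeR (0 at an unadjusted p under 0.05, 0 by DESeq2), with a median of 0.40. Fkbp5, a co-chaperone of the glucocorticoid receptor, read 49.89, 62.14 and 71.97 CPM at ZT14 against 23.28, 10.74 and 13.6 CPM at ZT2 (1.95, SE 0.38), and Pik3r1, a regulatory subunit of phosphoinositide kinase, 93.17, 101.2 and 101.9 against 50.12, 65.97 and 44.77 CPM (0.88, SE 0.20). The cell cycle inhibitor gene Cdkn1a differed by 1.27 (adjusted p 0.0451) and was not called without any one library except ZT2 replicate 1 (adjusted p 0.0608 to 0.181), by DESeq2 (0.0632), in the fit of all 72 libraries (0.306) or of the 6 libraries alone (0.0643). Tsc22d3 and Tat, further glucocorticoid targets, overlapped between the ZT and were not called.

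Of 25 genes of cell cycle and DNA replication, 5 were lower at ZT14, all of them subunits of the MCM helicase that opens DNA for replication, and 2 were higher, Cdkn1a and Gadd45b, with a median of -0.008. Mcm6 read 5.403, 7.663 and 4.578 against 15.36, 10.9 and 17.79 CPM (-1.32, SE 0.30) and Mcm4 2.938, 4.171 and 5.184 against 9.566, 8.695 and 7.329 CPM (-1.06, SE 0.24). Mcm2, Mcm3 and Mcm5 differed by -1.16, -0.99 and -1.05, and the count of lower genes was 2 without ZT2 replicate 1 or 3 or ZT14 replicate 1 or 3, where Mcm2 (adjusted p 0.0512 to 0.0838), Mcm3 (0.0732 to 0.131) and Mcm5 (0.0694 to 0.114) were not called. Mcm2 was also lost without ZT14 replicate 2 (0.0531) and Mcm5 in the fit of all 72 libraries (0.0802). Gadd45b, at 1.416, 1.877 and 1.158 against 0.6378, 0.05368 and 0.478 CPM, was not called without any one library except ZT2 replicate 1 (adjusted p 0.0501 to 0.121). Its call was also lost in the fit of all 72 libraries (0.06). Among 23 immediate early and actin genes, 0 were higher by edgeR (2 at an unadjusted p under 0.05, 0 by DESeq2) and 1 was lower, Cnn3, with -0.29 and a median of the list of -0.16. Cnn3 was not called without ZT2 replicate 1 or 3 or ZT14 replicate 1 or 3 (adjusted p 0.0788 to 0.137). Its call was also lost with no filter on low counts (0.117) and in the fit of all 72 libraries (0.055).

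Markers of the cells a liver sample can hold were read beside these results. Hepatocyte markers had 1 of 9 genes higher, Cyp2e1 (0.57), and 0 were lower by edgeR (1 at an unadjusted p under 0.05, 0 by DESeq2), and summed to 84970 to 99900 CPM at ZT14 and 79860 to 92240 CPM at ZT2. Of 10 Kupffer cell and macrophage markers, 0 were higher by edgeR (0 at an unadjusted p under 0.05, 0 by DESeq2) and 1 was lower, Adgre1, which encodes F4/80 (10.86, 8.498 and 17.21 against 16.74, 19 and 21.24 CPM, -0.64, adjusted p 0.029), a call that was lost without ZT2 replicate 2 or 3 or ZT14 replicate 1 or 2 (adjusted p 0.0638 to 0.122), in the fit of all 72 libraries (0.0909) and with the 6 libraries alone (0.0815). The median of this list was -0.39, all 10 log2 fold changes were under 0, and its sum was 195.2 to 348.6 CPM at ZT14 and 343.5 to 407.9 CPM at ZT2, ranges that overlapped. Of 10 endothelial markers 1 was lower, Clec4g (-0.51, lost without ZT2 replicate 1 or 3 or ZT14 replicate 1 or 2, adjusted p 0.0508 to 0.0991), and 0 were higher by edgeR (0 at an unadjusted p under 0.05, 0 by DESeq2), with a sum of 354.1 to 386.6 CPM at ZT14 and 347.9 to 363.6 CPM at ZT2.

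Stellate and fibroblast, cholangiocyte, lymphocyte and neutrophil, and erythroid markers gave 0 calls by edgeR among 10, 9, 8 and 5 tested genes. At an unadjusted p under 0.05 they had 1, 2, 2 and 1, and by DESeq2 0, 0, 1 and 0. Stellate markers summed to 430.5 to 453.6 CPM at ZT14 and 387.3 to 413.2 CPM at ZT2, and cholangiocyte markers to 58.74 to 183.6 CPM at ZT14 and 73.98 to 116.3 CPM at ZT2. Lymphocyte and neutrophil markers, with 11 in the list, summed to 3.232 to 6.232 CPM at ZT14 and 4.89 to 10.62 CPM at ZT2, and erythroid markers to 175.7 to 277.5 CPM at ZT14 and 170.6 to 326.9 CPM at ZT2. Of 13 genes of the exocrine pancreas and 7 of adipocytes only 2 of each list passed the filter on low counts. Among those Cela1 (-0.50) and Car3 (-0.67), both expressed by the liver as well, were lower. Neither was called in the fit of all 72 libraries (adjusted p 0.294 and 0.0751), and Car3 not without ZT2 replicate 2 or 3 or any one ZT14 library (0.0521 to 0.151). The sums were 85.13 to 97.51 CPM at ZT14 and 110.8 to 138.6 CPM at ZT2 for the pancreas and 1444 to 1852 CPM at ZT14 and 1898 to 2892 CPM at ZT2 for adipocytes. The part of these shifts in the other results was not tested.

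The other ZT of GF LKO mice were read beside both time points. In principal components of the 18 GF LKO libraries, the first component (19%) ran from -15.03 to -4 at ZT2 and from 8.21 to 13.51 at ZT14, and the second (18.1%) from 4.28 to 6.68 at ZT2 and from -9.1 to -4.45 at ZT14. Of the 879 genes called higher at ZT14, 624 had the highest of their 6 ZT means at ZT14, 151 at ZT10 and 93 at ZT18, with 6 at ZT6 and 5 at ZT22. Of the 901 called lower, 401 had it at ZT2, 336 at ZT6 and 116 at ZT22, with 34 at ZT18 and 14 at ZT10. Because these genes were chosen for ZT14 lying above or below ZT2, such peaks were favored by the choice. No higher gene had its highest mean at ZT2 and no lower gene at ZT14 for the same reason. The shares over all genes tested are not given. The means of Cyp7a1 were 130.7, 168.9, 249.7, 825.1, 624.7 and 140.9 CPM at ZT2, ZT6, ZT10, ZT14, ZT18 and ZT22, highest at ZT14 and next at ZT18. The mean of Hspa1b was 51.4 CPM at ZT14 against 6.809 to 17.25 CPM at the other ZT, and that of Acacb was 14.88 CPM at ZT14 against 22.98 to 74.01 CPM.

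**Figure D4:**
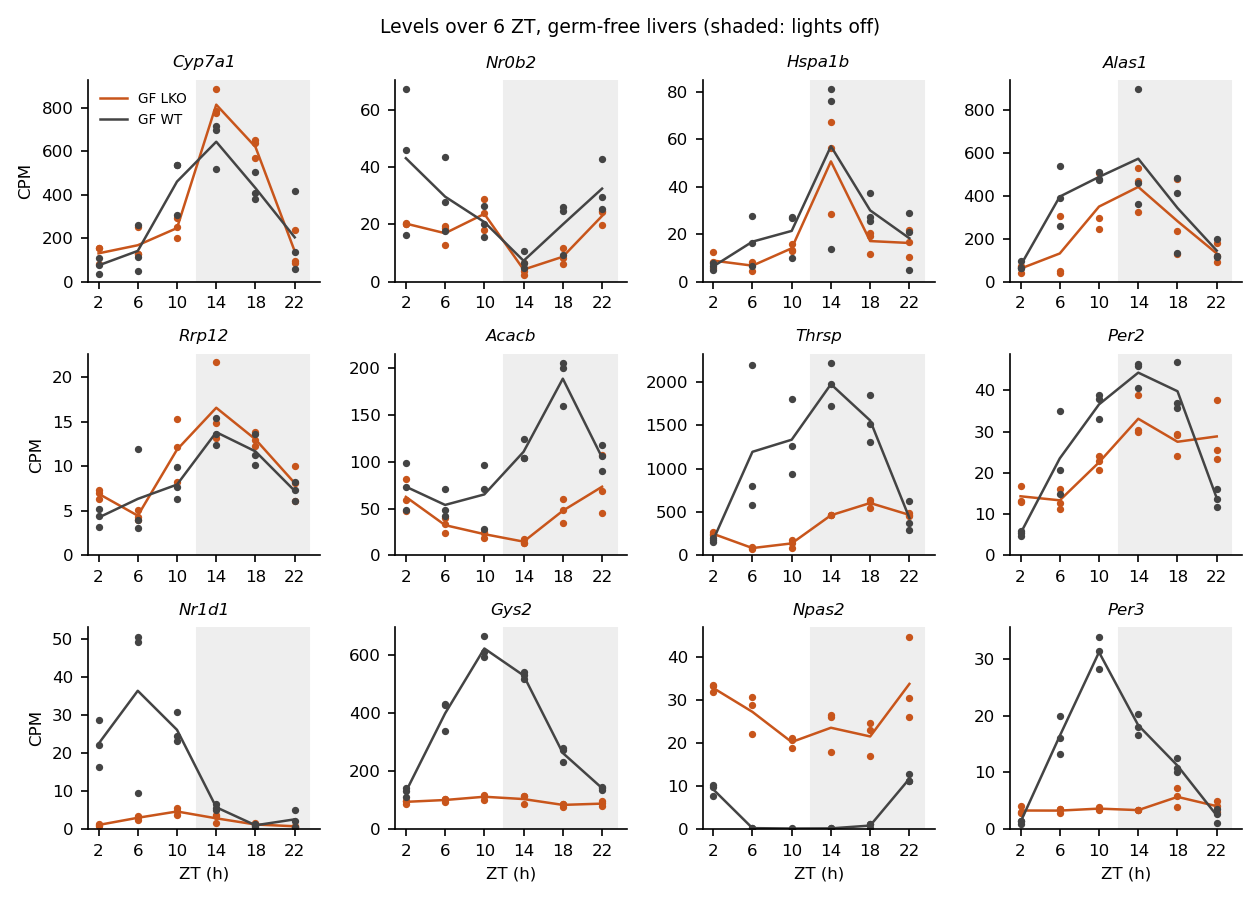
CPM (vertical axes, scaled with TMM factors of all 72 libraries) of 12 genes over 6 ZT (horizontal axes, in hours) in GF LKO (orange) and GF WT (dark gray) livers, with each library as a point, means as lines and the dark phase shaded. Cyp7a1 is highest at ZT14 in GF LKO mice, and Gys2 stays between 77.21 and 118.6 CPM in GF LKO mice, while in GF WT mice it ranges from 111.4 to 664.5 CPM.

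The comparison with GF WT mice asked which of these differences were also seen with an intact hepatic clock. In a fit of the 36 GF libraries, 1396 of 13806 genes differed between ZT14 and ZT2 in GF LKO mice (10.1%) and 1975 in GF WT mice (14.3%). The 621 genes called in both made up 44.5% of the GF LKO calls and 31.4% of the GF WT calls, and 610 of them had the same direction. The difference between the genotypes was itself tested as an interaction and was called for 149 genes (1.08%), with 89 lower and 60 higher in GF LKO. Of the 149, 125 had the larger change in GF WT mice and 24 in GF LKO mice. The count was 97 without GF LKO ZT2 replicate 1, and 234 without the doubtful GF WT library labelled ZT6 replicate 3.

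Of the 24 genes named above for their change in GF LKO mice, 22 gave no call in this interaction (adjusted p 0.292 to 0.994), which does not show that the changes are equal. In GF WT mice Tsku rose by 3.12, Alas1 by 2.93, Cyp7a1 by 3.10 and Hspa1b by 3.16, and Nr0b2 differed by -2.56. The called genes were Acacb and Usp2. On the scale of all 72 libraries, Acacb read 13.56, 17.41 and 13.09 CPM at ZT14 and 81.45, 59.13 and 47.11 CPM at ZT2 in GF LKO mice. In GF WT mice it read 104.3, 103.8 and 124.4 CPM at ZT14 and 48.36, 99.3 and 72.81 CPM at ZT2. Every ZT14 library was under the ZT2 libraries in GF LKO mice and above them in GF WT mice, where the difference (0.59) was not called, and the genotypes stood apart by -2.67 (SE 0.46, adjusted p 0.00113). Usp2 rose by 2.39 in GF LKO and 4.89 in GF WT mice, and this interaction was not called without GF LKO ZT2 replicate 1 (adjusted p 0.0582) or in the fit of all 72 libraries (0.0564).

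**Figure D5:**
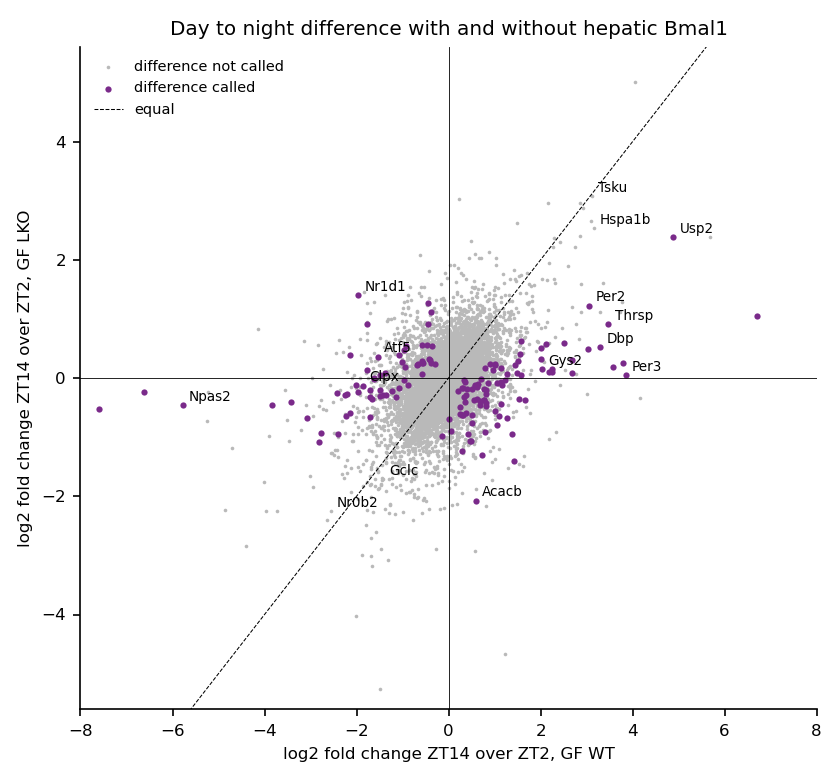
Log2 fold change of ZT14 over ZT2 in GF LKO (vertical axis) against that in GF WT (horizontal axis), with genes whose difference between genotypes was called in purple and a dashed line of equal change. Per3 (3.85 in GF WT) and Gys2 (2.04) lie near 0 in GF LKO mice. Npas2 lies at -5.78 in GF WT mice and closer to the zero line, but under it, in GF LKO mice. Acacb lies at -2.07 in GF LKO and at 0.59 in GF WT mice, and Tsku, Hspa1b and Nr0b2 lie near the line of equal change.

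Npas2, Per3, Gys2, Tef, Clpx and Dtx4 were the 6 genes named for the smallest p in the interaction. On the scale of all 72 libraries, Npas2, which can take the place of CLOCK beside BMAL1, read 17.91, 26.04 and 26.56 CPM at ZT14 and 33.14, 33.33 and 31.72 CPM at ZT2 in GF LKO mice. In GF WT mice it read 0.3074, 0.174 and 0 CPM at ZT14 and 7.69, 9.781 and 10.18 CPM at ZT2 (difference between genotypes 5.31, SE 0.49, adjusted p 3e-08). Npas2 was thus higher in every GF LKO library than in any of these GF WT libraries. Per3 read 3.364, 3.287 and 3.382 CPM at ZT14 and 2.779, 3.045 and 4.005 CPM at ZT2 in GF LKO mice, and 20.22, 16.64 and 18.03 CPM at ZT14 and 0.9124, 1.497 and 1.346 CPM at ZT2 in GF WT mice (-3.81, adjusted p 8.8e-08). Gys2 read 112.9, 84.81 and 112.2 CPM and 96.15, 97.43 and 87.57 CPM in GF LKO mice, and 540.4, 530.1 and 515.5 CPM and 142.3, 111.4 and 132.4 CPM in GF WT mice (-1.89, adjusted p 1.04e-08). For both, the ranges of ZT14 and ZT2 overlapped in GF LKO mice and lay far apart in GF WT mice. Tef, an output factor of the clock, rose by 2.000 in GF WT mice (-1.69, adjusted p 1.04e-08). Clpx, a mitochondrial unfoldase, and Dtx4, a ubiquitin ligase, differed by -1.86 and -2.02 in GF WT mice and were not called in GF LKO mice (-0.13 and -0.11).

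Per2 rose in both genotypes, by 1.23 in GF LKO and 3.06 in GF WT mice, and the changes differed (-1.84, adjusted p 0.000651). Opposite directions, with a call in each genotype and a called interaction, were found for Nr1d1 (1.40 in GF LKO and -1.97 in GF WT), Atf5 (0.36 and -1.54) and Elovl6 (-0.65 and 1.09). The GF LKO calls came from the fit of 18 libraries and the GF WT calls from that of 36. None of these GF LKO calls held in the fit of all 72 libraries (adjusted p 0.267, 0.327 and 0.146 by edgeR). Each was also lost without certain single libraries, that of Atf5 without GF LKO ZT2 replicate 3 or ZT14 replicate 1 or 3 (0.0723 to 0.134). Thrsp rose by 0.91 and 3.47, and Nampt, of NAD synthesis, by 0.51 and 2.01. Elovl6 lost the interaction call without GF LKO ZT2 replicate 1 or GF WT ZT14 replicate 1 (adjusted p 0.0625 and 0.0549), Nampt without GF LKO ZT2 replicate 1 or GF WT ZT2 replicate 2 (0.0502 and 0.0563), and Nr1d1 in the fit of all 72 libraries (0.0755).

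The bases before the starts of Tef and Per3, with a called difference between the genotypes, were chosen for display because they hold one of the motifs. The windows of Npas2, Nr1d1, Dbp, Usp2 and Por, which also had a called difference, held 0 of these E-boxes and 0 of these D-boxes. Without a called difference, Nr0b2 also held 1 E-box, which began 195 bases before its start. Alas1, Tsku, Hspa1a and Hspa1b, likewise without a called difference, held 0 of either motif. A link between these motifs and the differences was not tested. Capitals mark the E-box CACGTG, which BMAL1 binds with its partners, in Tef (plus strand, chr15:81802423-81802672), and the D-box TTATGTAA, which the factors DBP, TEF and HLF bind, in Per3 (minus strand, chr4:151044666-151044915). Both are from RefSeq (GRCm38.p6) and read 5′ to 3′.
Tef: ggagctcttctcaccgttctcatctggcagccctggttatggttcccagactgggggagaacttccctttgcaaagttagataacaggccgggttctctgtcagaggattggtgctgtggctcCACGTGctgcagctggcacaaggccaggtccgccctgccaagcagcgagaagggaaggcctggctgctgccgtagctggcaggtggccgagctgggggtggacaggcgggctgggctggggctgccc
Per3: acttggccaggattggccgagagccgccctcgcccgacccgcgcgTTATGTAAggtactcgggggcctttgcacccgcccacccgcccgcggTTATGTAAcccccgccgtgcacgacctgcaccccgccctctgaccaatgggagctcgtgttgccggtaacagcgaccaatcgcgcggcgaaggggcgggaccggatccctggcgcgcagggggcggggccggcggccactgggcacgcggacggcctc
Tef held 1 E-box, which began 127 bases before the start, its other listed start had 1 at 138 bases, and Per3 held 2 D-boxes, 205 and 158 bases before the start. Both strands were searched, and of the 32851 windows of 300 bases 7.15% held this E-box and 0.938% this D-box.

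Against SPF LKO mice, which carry a microbiota, the interaction was called for 80 of 14234 genes (0.562%). This count was not stable. It was 9 without the doubtful SPF LKO libraries labelled ZT14 replicate 2 and ZT18 replicate 1. Without SPF LKO ZT2 replicates 1 and 3 and ZT14 replicates 2 and 3 it was 1, 0, 2 and 550, and without GF LKO ZT2 replicates 1, 2 and 3 and ZT14 replicates 1, 2 and 3 it was 1, 16, 1, 0, 1 and 13. The counts of 0, from edgeR, went with 2358 genes (without SPF LKO ZT2 replicate 3) and 2242 genes (without GF LKO ZT14 replicate 1) at an unadjusted p under 0.05, and DESeq2 called 405 genes with all libraries.

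Among the genes of this test, Tmem150a, a membrane protein gene, read 53.4, 56.72 and 56.7 CPM at ZT14 against 111.8, 104 and 115 CPM at ZT2 in GF LKO mice (-0.99, SE 0.09) and differed by -0.04 in SPF LKO mice. Its interaction was called with and without the doubtful libraries (adjusted p 0.00899 and 0.0131) but not without SPF LKO ZT2 replicate 3 (0.0543) or GF LKO ZT14 replicate 1 (0.0609). Tmem150a also differed from GF WT mice (-0.86, adjusted p 0.00429). Cyp7a1 differed by 0.42 in SPF LKO mice, and its interaction was called with all libraries (adjusted p 0.0395) but not without the doubtful ones (0.0885). The difference itself was 2.24 with all libraries and 2.21 without those. The call was also lost without any one library of these groups and ZT except SPF LKO ZT14 replicate 3 (adjusted p 0.051 to 0.109), the GF LKO libraries among them.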

How the data were processed

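Liver RNA of 72 mouse libraries was sequenced. The authors aligned reads to mm10 (GRCm38) with STAR 2.6.1b and deposited counts per gene made with featureCounts 2.0.0, without use of strand and without reads that had several alignments or overlapped several genes, so overlapping and antisense genes and near-identical copies are uncertain. From these counts, edgeR 4.0.16 in R 4.3.3 was run here with TMM factors, its expression filter and the quasi-likelihood F test on the 18 GF LKO libraries with 1 mean per ZT, and interactions on the 36 GF and the 36 LKO libraries, with a Benjamini-Hochberg adjusted p under 0.05 called. All 72 sample columns were mapped to labels. The 18 GF LKO libraries held 17369927 to 19923220 counts, which limits the precision of low genes.

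Members, gene lists and tests were chosen with earlier results of these data known. Named were the 12 largest increases and 12 largest decreases (called, mean log2 CPM of at least 1, no overlap, predicted genes passed over), a fixed set of anchor genes, up to 6 called genes of smallest p in each list (2 where none was called) and 6 in each interaction. Some genes that this rule chose are not reported here. The lists covered the clock, cholesterol, fatty acids, triglycerides, oxidation, glucose, hormones, heat shock, cold, protein folding, amino acid response, ribosome biogenesis, polyamines, glucocorticoids, immediate early genes, bile acids, xenobiotics, amino acids, cofactors, metals, acute phase, growth hormone, cell cycle, zonation and cell types. Alternatives were DESeq2 1.42.0, its size factors, no filter, other sets of libraries, a replicate block and leaving out each library. Scripts were tested on simulated counts in which 200 genes changed by a log2 fold change of 1 in size. For ZT14 against ZT2 edgeR recovered 162 of them and called 20 other genes. It recovered 101 for the interaction with GF WT (3 others called) and 113 for that with SPF LKO (5 others called).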

Additional observations from a re-analysis of the deposited data

Results flagged for a closer look

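For 18 named genes the difference between ZT14 and ZT2 was not the same in GF LKO and GF WT mice, by the interaction test of edgeR on the 36 GF libraries (adjusted p 1.04e-08 to 0.0403). Given as the log2 difference in GF LKO minus that in GF WT, it was lower in GF LKO by this measure in 13 genes, with -1.69 for Tef, -1.89 for Gys2, -3.81 for Per3, -1.84 for Per2, -2.67 for Acacb, -2.57 for Thrsp, -0.86 for Tmem150a, -2.51 for Usp2, -2.78 for Dbp, -1.51 for Nampt, -1.93 for Por, -1.75 for Elovl6 and -1.52 for Acmsd. It was higher in 5 genes, with 5.31 for Npas2, 1.90 for Dtx4, 1.72 for Clpx, 1.90 for Atf5 and 3.36 for Nr1d1. Of the 18, 11 were called under every alternative tried. Por, of electron supply to cytochrome P450 enzymes, lost its call without GF LKO ZT2 replicate 1, GF WT ZT2 replicate 1 or GF WT ZT14 replicate 1 (adjusted p 0.075, 0.0569 and 0.0526) and in the fit of all 72 libraries (0.0581). Dbp, an output factor of the clock, lost it in the fit of all 72 libraries (0.183). Acmsd, of tryptophan breakdown, lost it without any one of 10 of the 12 libraries of these groups and ZT.

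For 14 named genes the difference between ZT14 and ZT2 was not the same in GF LKO and SPF LKO mice, by the same test on the 36 LKO libraries (adjusted p 0.00899 to 0.0481). The log2 difference in GF LKO minus that in SPF LKO was -0.95 for Tmem150a, -0.74 for Crp, -1.90 for Acmsd, -1.63 for Orm1, -0.90 for Tmem208, -1.01 for Odc1, -1.95 for Slc41a2 and -4.70 for Mt1. On the other side it was 0.75 for Asah2, 0.82 for Pank3, 2.24 for Cyp7a1, 1.33 for Hsd17b7, 2.81 for Col4a3 and 1.67 for Hgf. The value of Mt1 was -2.68 without the doubtful SPF LKO libraries (adjusted p 0.125) and also without SPF LKO ZT14 replicate 2 alone (0.146). Without the SPF LKO libraries labelled ZT14 replicate 2 and ZT18 replicate 1 the calls of Tmem150a and Crp remained (adjusted p 0.0131 and 0.0493), and none of the 14 was called under every alternative tried. Crp was not called without SPF LKO ZT2 replicate 1 or 3, SPF LKO ZT14 replicate 2, GF LKO ZT2 replicate 1 or 3 or GF LKO ZT14 replicate 1 or 2 (adjusted p 0.0507 to 0.0816). Its call was also lost in the fit of all 72 libraries (0.0799).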

How the results depend on the processing

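The 1780 calls of ZT14 against ZT2 became 1974 with DESeq2, 1773 with its size factors in edgeR, 2103 with no filter on low counts, 1350 in a fit of all 72 libraries and 1901 with the 6 libraries alone, and 353 with the added limit on fold change. Leaving out single libraries gave 976 to 1404 calls, 413 to 658 of them higher and 563 to 766 lower. The interaction with GF WT (149) became 271 with DESeq2, 537 with no filter, 96 with all 72 libraries and 234 without the doubtful GF WT library, and 97 to 160 without single libraries. The interaction with SPF LKO (80) became 405 with DESeq2, 53 with its size factors in edgeR, 856 with no filter, 53 with all 72 libraries and 9 without the doubtful SPF LKO libraries, and 0 to 550 without single libraries. The cause was not tested. Of 163 named genes 119 were called for ZT14 against ZT2. Of those 119, 68 were called under every alternative and 77 with all libraries and without any one of the 6. Among the named genes no direction of a called value reversed under the alternatives run, and the directions of the other called genes were not checked. With a replicate block the counts were 1808, 143 for GF WT and 46 for SPF LKO. Same-numbered libraries of ZT14 and ZT2 did not deviate together (correlations -0.09, 0.037 and -0.007), and not every library correlated best with its own number, so the numbers were not taken as pairs. With 3 libraries per group and ZT, small changes and low genes are the least certain.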

Other observations

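Amino acid catabolism and the urea cycle had 3 of 38 tested genes called higher at ZT14 and 3 lower, with a median log2 fold change of -0.02. Mat1a, which makes S-adenosylmethionine in the liver, read 6868, 6268 and 7347 CPM at ZT14 against 4069, 3989 and 4245 CPM at ZT2 (0.74, SE 0.13), and Nags, which makes the activator of the urea cycle, was higher by 0.46. Sds was the other higher gene. Hal, the first enzyme of histidine breakdown, read 312, 248.3 and 246.9 against 415.8, 490.8 and 479.6 CPM (-0.78, SE 0.13), and Amdhd1, of the same pathway, 220.8, 209.2 and 175.8 against 305.9, 259.4 and 288 CPM (-0.49). Aldh4a1, of proline breakdown, differed by -0.31 and was not called without ZT2 replicate 1 or 3 or ZT14 replicate 2 or 3 (adjusted p 0.0524 to 0.136), with no filter on low counts (0.0762) or in the fit of all 72 libraries (0.0869), and Nags and Amdhd1 were not called in the fit of all 72 libraries (0.0728 and 0.0861). Polyamine synthesis and breakdown had 2 of 10 genes higher, Srm (1.07) and Amd1 (0.73), both of spermidine synthesis, and 2 lower, Sat1 (-0.59) and Paox (-0.52), both of polyamine breakdown, with a median of 0.03. Paox was not called without ZT2 replicate 1 (adjusted p 0.0592) or ZT14 replicate 1 (0.0834).

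Genes of the growth hormone response had 1 of 20 higher, Socs3 (1.12), and 2 lower, Stat5b, which carries the signal (69.61, 65.11 and 71.86 against 110.3, 95.86 and 105.8 CPM, -0.60), and the steroid enzyme gene Hsd3b5 (-0.55), with a median of -0.03. Of acute phase and complement genes, 1 of 30 was higher, Socs3, and 1 lower, Crp (598.9, 632.6 and 692.3 against 1061, 915.2 and 860.3 CPM, -0.56), with a median of -0.04. Socs3 was not called without any one ZT2 library or ZT14 replicate 1 (adjusted p 0.051 to 0.119), and Hsd3b5 not without any one library except ZT2 replicate 1 (0.0519 to 0.104). In the fit of all 72 libraries neither was called (0.311 and 0.269). Of 4 cold-inducible RNA-binding protein genes, 2 were higher, Rbm3 (0.67) and Rbm14 (0.51), and 1 lower, Srsf5 (37.72, 47.08 and 36.29 against 67.02, 84.27 and 99 CPM, -1.05, SE 0.19), with a median of -0.04. Cirbp read 11.38, 9.592 and 7.942 against 10.9, 14.65 and 17.84 CPM and was not called (-0.58, adjusted p 0.0526). Rbm3 was not called without ZT2 replicate 1 or ZT14 replicate 2 (adjusted p 0.0791 to 0.0893), and Rbm14 not without any one library except ZT2 replicate 1 (0.0601 to 0.171). In the fit of all 72 libraries neither Rbm3 nor Rbm14 was called (0.114 and 0.147).

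Genes of the pericentral zone of the liver lobule had 2 of 13 higher, Cyp2e1 and the Wnt target Tbx3 (1.08), and 1 lower, the Wnt receptor gene Lgr5 (-0.93), with a median of -0.06. Genes of the periportal zone had 1 of 13 higher, Sds, and 2 lower, Hal and the protease gene Ctsc (-0.59), with a median of 0.02. Tbx3 lost its call whichever of the 6 libraries was left out (adjusted p 0.0544 to 0.135) and in the fit of all 72 libraries (0.11). Lgr5 lost its call without ZT2 replicate 2 or 3 or ZT14 replicate 1 or 2 (0.0572 to 0.146). Ctsc lost its call without ZT2 replicate 1 or ZT14 replicate 1 or 2 (0.0618 to 0.0902).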
